A study of Mus musculus with 25 samples.

Results

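The genes described here are 42 known mouse imprinted genes at 19 loci, taken from the 48440 rows of the count table by matching the Ensembl identifier of each row to its gene symbol. All 42 had a row. Measured were 3′ messenger RNA counts, with each RNA molecule counted once by its unique molecular identifier, in 25 cultures of mouse E14 embryonic stem (ES) cells grown with serum and leukemia inhibitory factor. There were 15 clonal lines, each heterozygous for a missense change of β-catenin (Ctnnb1) at serine 37, threonine 41 or serine 45, residues whose phosphorylation marks the protein for destruction. The lines were S37A A10, S37C G12, S37F H2 and G1, S37Y A5, S45C D3, S45F C1 and D9, S45P G5, T41A C1 and E6, T41I B9 and A6, T41N D3, and T41S H8, so that 4 of the 11 mutations had 2 clones and the other 7 had 1. The 10 unedited E14 cultures had received CHIR99021, an inhibitor of the β-catenin kinase GSK3, for 48 h at 0, 2.5, 5, 7.5 or 10 µM, with 2 cultures at each dose, and the clones had received none.

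Every clone had gone through targeting of a drug-selection cassette into one Ctnnb1 allele, replacement of that cassette by the mutant sequence, colony picking and expansion. No clone without a mutation and no cloned unedited line is among the samples, so the mutation cannot be told apart from cloning and editing, and a mutation with 1 clone cannot be told apart from that clone. The counts did not separate the 2 alleles of any gene, so they give the total level of each imprinted gene and not its parental origin. In bulk RNA of this kind, fewer cells of a type and less RNA per cell cannot be told apart.

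An imprinted gene is transcribed mainly from the allele inherited from one parent. The choice is set by DNA methylation laid down in the egg or sperm at an imprinting control region, which commands a cluster of neighbouring genes, often through a long non-coding RNA transcribed from the unmethylated allele. A gene can therefore gain output when the silent allele opens or lose it when the active allele closes. Cultured ES cells are known for gaining and losing these marks from line to line, and many imprinted genes control fetal and placental growth.

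Sequencing depth was 495616 to 2025273 counts per clone (median 1343404) and 306157 to 2083398 per unedited library. A gene at 0 counts could still be present at up to 1.44 to 9.80 CPM (counts scaled to a library total of 1000000), depending on the library, if 3 counts are taken as the detection floor, which covers counting error only. The mitochondrial share of counts was 1.53% to 2.52% in clones and 0.485% to 1.46% in unedited libraries, without overlap. The summed level of 8 ES-cell markers was 1823 to 5471 CPM in clones and 3388 to 4476 CPM in unedited libraries, and each of the 8 was detected in every library. T41S H8 had the lowest ES-marker sum of the clones (1823 CPM). It also had the highest sums of 8 neural (238 CPM), 8 fibroblast (172 CPM) and 8 trophoblast markers (140.1 CPM). Nes gave 127 CPM of its neural sum and Col1a1 126 CPM of its fibroblast sum, while Tubb3, Pax6 and Map2 were highest in other clones. ES-marker sums of T41N D3 and S45C D3 (2786 and 2821 CPM) were also below every unedited library. Their neural sums were 153 and 190 CPM against at most 91.4 CPM in unedited libraries, a level that S45F C1, S45F D9, S45P G5 and T41I A6 also passed. S37Y A5 had the highest sum of 8 primitive endoderm markers, 262 CPM against 11.5 to 49.0 CPM in unedited libraries, and counts for Afp were 0 throughout. The part of the mitochondrial share and of these markers in the results below was not tested.

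The 4 upstream sequences that follow belong to genes whose levels are described in full below, chosen because all of them hold the motif below and were called higher in 9 or more single clones. Each is the 250 bases before a RefSeq transcription start (GRCm38.p6, plus strand). Capitals mark the motif TGCCGC on either strand, the core of the site bound by the imprint-protecting zinc finger protein Zfp57 when it is methylated. Mest is a paternally expressed gene on chromosome 6 (chr6:30737800-30738049), Mcts2 lies within a host gene on chromosome 2 (chr2:152686898-152687147), Plagl1 is on chromosome 10 (chr10:13090582-13090831), and the Zdbf2 sequence precedes the more upstream of its 2 RefSeq starts on chromosome 1 (chr1:63200108-63200357).
Mest: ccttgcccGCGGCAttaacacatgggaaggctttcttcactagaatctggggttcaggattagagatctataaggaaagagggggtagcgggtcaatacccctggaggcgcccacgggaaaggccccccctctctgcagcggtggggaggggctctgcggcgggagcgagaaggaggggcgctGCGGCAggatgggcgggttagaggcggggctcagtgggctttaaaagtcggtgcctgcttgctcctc
Mcts2: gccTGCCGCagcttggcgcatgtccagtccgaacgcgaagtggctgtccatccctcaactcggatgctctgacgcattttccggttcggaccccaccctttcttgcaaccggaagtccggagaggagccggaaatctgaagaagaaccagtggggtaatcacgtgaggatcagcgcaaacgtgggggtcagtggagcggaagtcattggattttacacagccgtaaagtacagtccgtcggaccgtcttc
Plagl1: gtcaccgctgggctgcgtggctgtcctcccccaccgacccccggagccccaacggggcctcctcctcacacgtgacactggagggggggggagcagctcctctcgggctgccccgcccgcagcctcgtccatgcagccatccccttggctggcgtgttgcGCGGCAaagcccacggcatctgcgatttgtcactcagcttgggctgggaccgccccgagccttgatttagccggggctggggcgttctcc
Zdbf2: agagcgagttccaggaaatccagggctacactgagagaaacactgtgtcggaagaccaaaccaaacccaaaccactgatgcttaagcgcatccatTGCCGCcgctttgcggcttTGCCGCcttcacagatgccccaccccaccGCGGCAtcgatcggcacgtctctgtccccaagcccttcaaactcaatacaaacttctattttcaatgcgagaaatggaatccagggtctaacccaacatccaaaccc

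Of 50 such windows from 34 of the genes, 9 (18.0%) held TGCCGC, compared with 8.68% of the 32851 windows of all genes. The 9 belonged to Zdbf2 (3 copies), Mest (2 copies in each of 2 windows that overlap), Mcts2, Plagl1, Meg3, Copg2, Nap1l5 and Zim1. The median number of CpG dinucleotides was 11.5 in the windows of imprinted genes and 6 in all windows. A motif in such a window is a description of its letters and shows no binding. The sequences above were chosen by both motif and direction, so they cannot show that the 2 go together. Copg2 and Meg3 held the motif and were each called lower in 3 clones, and Meg3 was called higher in 1. The windows of Snrpn, called higher in 14 clones, held none. The motif was also absent before the other Zdbf2 start, which is where the counted Zdbf2 gene begins in GENCODE M21 (chr1:63273265-63314576). The Zdbf2 sequence printed above lies upstream of that gene and outside it. The Mest window at chr6:30733256-30733505 held no motif either.

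The first comparison asked which imprinted genes stood at a different level in the mutant clones, as a group, than in the unedited cells. Of 29 imprinted genes with enough counts to test, 8 were higher and 9 lower in clones, or 58.6%, while 55.6% of all 9861 genes tested were called (28.8% higher and 26.8% lower; edgeR quasi-likelihood test, adjusted p below 0.05). The share of imprinted genes called was thus near that of all genes. The median log2 difference was -0.12 over the imprinted genes and 0.02 over all genes. Of the 14 tested genes that are usually expressed from the paternal allele, 6 were higher and 2 lower. Of the 15 usually expressed from the maternal allele, 2 were higher and 7 lower. Some of the genes are imprinted only in certain tissues, and whether these labels held in the ES cells was not tested.

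Zdbf2, a paternally expressed gene with a role in growth of the newborn, showed the clearest separation. Its level was 36.3 to 125 CPM in clones (median 69.4) and 12.8 to 28.0 CPM in unedited libraries (median 20.5). All 15 clones lay above all 10 unedited libraries, which held for no other tested imprinted gene and for 7.81% of all genes tested in either direction. Its log2 difference was 1.65 (SE 0.20, edgeR adjusted p = 8.33e-08, n = 15 and 10), and each clone taken alone was called as well.

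The other genes that were higher in clones included 4 paternally expressed genes with overlapping ranges. Snrpn, which encodes a core protein of spliceosomal ribonucleoproteins, was at 90.8 to 175 CPM in clones against 59.9 to 93.6 CPM (log2 0.78, SE 0.12, edgeR adjusted p = 1.80e-06), with 14 of 15 clones above every unedited library. Mcts2, an intronless gene related to a translation factor, was at 18.6 to 69.6 CPM against 11.5 to 23.4 CPM (log2 1.25, SE 0.20, edgeR adjusted p = 7.79e-06). Impact, an inhibitor of the amino acid starvation response, was at 148 to 542 CPM against 114 to 225 CPM (log2 0.83, SE 0.17, edgeR adjusted p = 0.000168). Mest, which encodes a hydrolase-like protein of the endoplasmic reticulum, was at 26.4 to 269.7 CPM against 9.80 to 52.7 CPM (log2 1.55, SE 0.34, edgeR adjusted p = 0.000285). Only 10 of the 15 clones lay above all unedited libraries for Mest, and the 5 others were the codon 37 clones. The splicing-factor retrogene Zrsr1 (log2 0.74) and the non-coding RNAs Rian (0.65) and Mirg (0.54), hosts of small nucleolar RNAs and microRNAs, were also called. Zrsr1 lost its call without replicate 2 at 0, 2.5, 5 or 10 µM, S37Y A5 or either T41A clone, each left out alone. Mirg lost its call without either library at 0 or 5 µM, replicate 1 at 2.5 or 10 µM, or either S45F clone.

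Lower in clones were mainly genes usually expressed from the maternal allele, a label that was not tested in these cells. Igf2r, the receptor that removes the growth factor Igf2, was at 77.2 to 228 CPM in clones (median 139.8) and 189 to 319 CPM in unedited libraries (median 248), a log2 difference of -0.89 (SE 0.13, edgeR adjusted p = 1.04e-06). Of the 15 clones, 14 lay below every unedited library, and S37F G1 did not. Gnas, the stimulatory G protein subunit, which is transcribed from both alleles in most tissues, was at 258 to 985 CPM against 649 to 802 CPM (log2 -0.90, SE 0.14, edgeR adjusted p = 6.25e-06). Here too 14 clones were below all unedited libraries, while T41S H8 was above them. Phlda2, a restrainer of placental growth, was at 40.8 to 182.5 CPM against 126.5 to 225 CPM (log2 -0.79, SE 0.18, edgeR adjusted p = 0.000578). The others were Sgce (log2 -0.997), Dlk1 (-0.998), Cdkn1c (-0.90), Copg2 (-0.67), Ppp1r9a (-0.44) and Cd81 (-0.37), of which Sgce and Dlk1 are paternally expressed. The calls on Dlk1, Cdkn1c and Ppp1r9a were lost without the 4 unedited libraries of mitochondrial share under 0.8% (edgeR adjusted p of 0.0568, 0.0556 and 0.0702) with log2 differences of -1.02, -0.91 and -0.45 that did not shrink. Those on Rian (adjusted p = 0.0653) and Mirg (0.244) were lost too, and their log2 differences fell to 0.47 and 0.34. The 4 libraries left out were also the shallowest unedited ones (306157 to 940544 counts), so depth and mitochondrial share cannot be told apart here. Dlk1 also lost its call without replicate 1 at 7.5 µM, and Ppp1r9a without replicate 2 at 2.5 or 7.5 µM.

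The clones were grown without CHIR99021, and against the 2 untreated libraries alone only 3 of 32 tested imprinted genes were called, namely Zdbf2 and Mirg as higher and Phlda2 as lower, while 19.7% of all genes were called. Some lost calls kept most of their log2 difference, namely Sgce (-0.81), Gnas (-0.77), Copg2 (-0.66), Mcts2 (0.92), Impact (0.62), Zrsr1 (1.06) and Rian (0.80). In others the difference itself shrank by more than 1.5 times, from -0.90 to -0.24 for Cdkn1c, from -0.998 to -0.35 for Dlk1, from 1.55 to 0.90 for Mest, from -0.89 to -0.53 for Igf2r, from 0.78 to 0.50 for Snrpn and from -0.44 to -0.22 for Ppp1r9a. Cd81 had a log2 difference of 0.00 in place of -0.37, and its untreated libraries (411 and 458 CPM) were the lowest of the unedited ones. When each dose and each mutation was instead its own group in the fit, so that the spread came from the pairs within groups, 23 of 29 imprinted genes were called (8 higher and 15 lower) and 64.4% of all genes. Zrsr1 then lost its call (log2 0.37, edgeR adjusted p = 0.241), while Grb10 (-0.38, adjusted p = 0.00417), Igf2 (-0.40, 0.0106), Meg3 (-0.33, 0.0264) and Kcnq1ot1 (0.31, 0.0398) gained one.

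**Figure D1:**
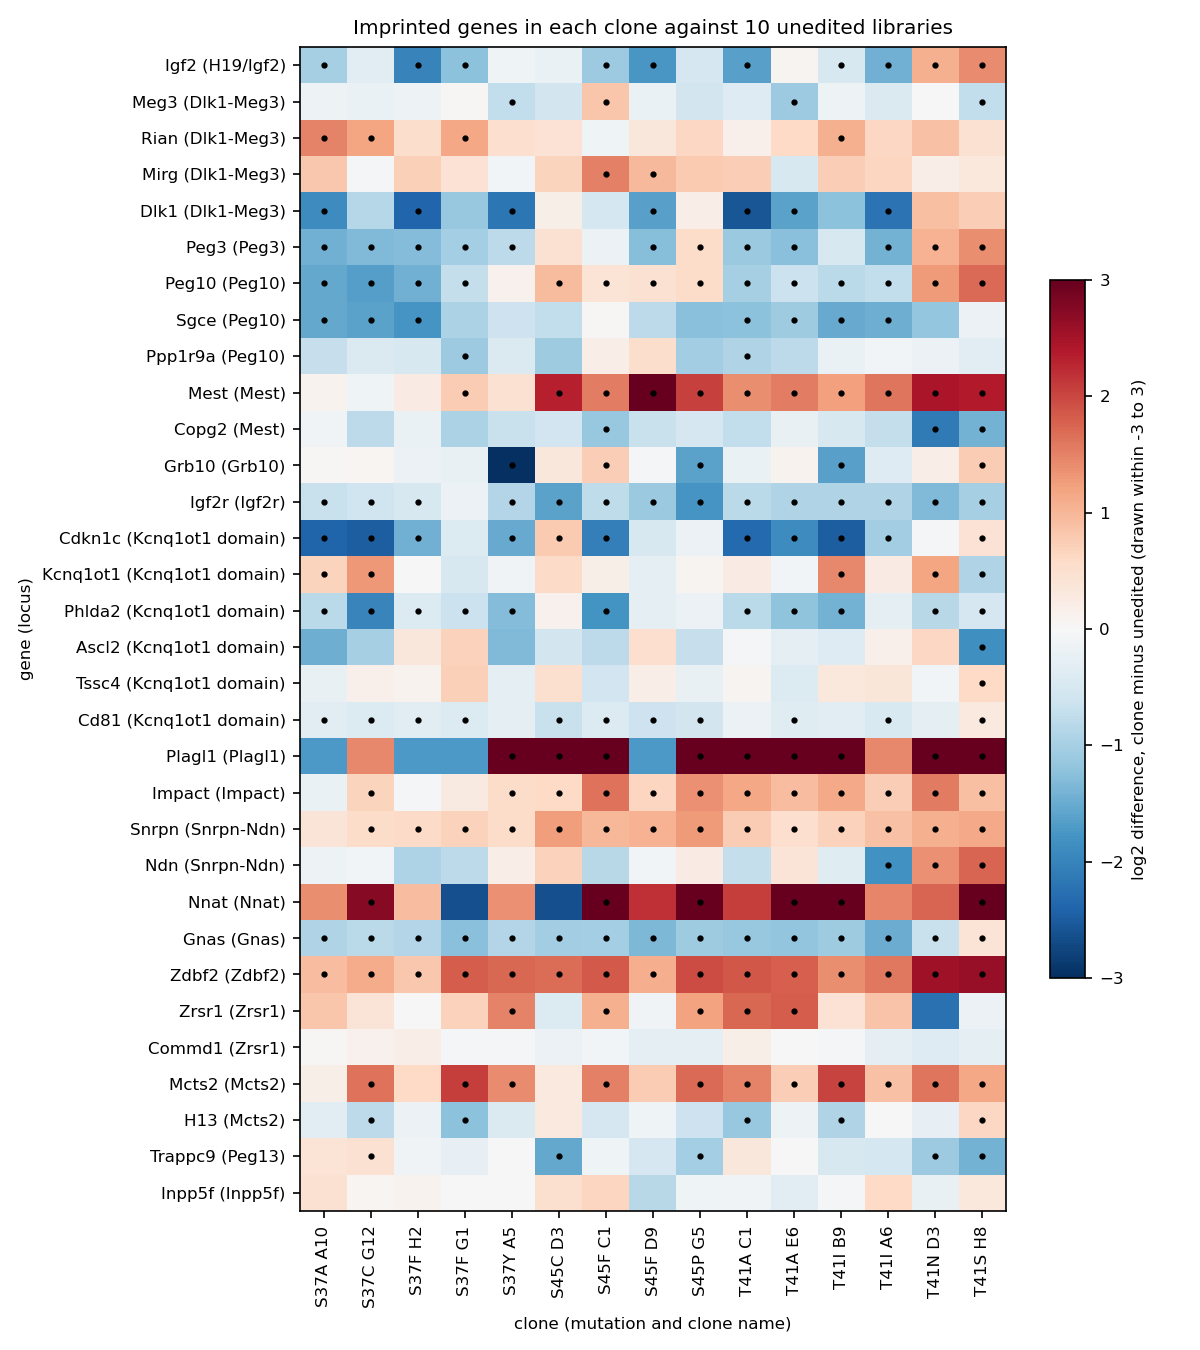
Log2 difference of each clone (columns) from the mean of the 5 doses of unedited cells for 32 imprinted genes (rows, with locus), where red is higher, blue is lower and a dot marks a call at an adjusted p below 0.05 in edgeR. Zdbf2 and Gnas carry a dot in all 15 clones, Mest carries one in the 10 clones of codons 41 and 45 and in S37F G1, and the values of Plagl1 and Nnat rest on 5 and 10 unedited counts in all.

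Each clone was then set against the unedited libraries on its own, with the spread taken from the 5 pairs of unedited libraries at a shared dose, so a lone clone was assumed to vary like those pairs. Of 540 tests of 36 genes in 15 clones, 239 were called (44.3%; 116 higher and 123 lower), compared with 31.2% of the tests over all genes (16.5% higher and 14.6% lower). Between 21.8% and 41.5% of all 11957 genes were called per clone, and between 30.6% and 69.4% of the imprinted genes. Of the 36 genes, 32 were called in at least 1 clone and 12 were called in both directions in different clones. Genes usually expressed from the paternal allele gave 100 higher and 43 lower calls in 285 tests, and genes usually expressed from the maternal allele gave 16 higher and 80 lower calls in 255 tests. The 100 include 9 calls on Plagl1 and 6 on Nnat. Both genes had too few counts for the first comparison and passed the filter of this fit only through clones where they were high. Their higher calls are therefore no separate support. T41S H8 had the most calls, 25 of 36.

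Plagl1, a paternally expressed zinc finger transcription factor, was almost silent in unedited cells. Only 5 counts were found in the 10 unedited libraries together, and none exceeded 3.29 CPM. Its level was 72.3 CPM in T41I B9, 61.0 CPM in T41A E6, 31.1 CPM in T41A C1, 24.0 CPM in S45P G5 and 20.1 CPM in S45F C1. In T41N D3 it was 10.1 CPM, in S45C D3 and T41S H8 4.53 and 4.52 CPM, and in S37Y A5 2.96 CPM. The other 6 clones held at most 0.799 CPM. Thus 9 of 15 clones were called higher and 8 lay above every unedited library, and the T41I and S45F clone pairs each had one clone on either side. The gene was tested only because it was high in some clones, so these calls describe levels and add no support.

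Nnat, a paternally expressed membrane protein gene of brain and other tissues, showed a like pattern with fewer counts (10 in all unedited libraries, none above 2.13 CPM). It reached 49.2 CPM in S45P G5 and 35.8 CPM in S45F C1, and 8.47, 8.18 and 6.89 CPM in T41S H8, T41A E6 and T41I B9. The remaining 10 clones were at 0 to 4.0 CPM. S37C G12 and the 5 clones named were called higher. Nnat overlaps Blcap on the opposite strand, and whether the counting used strand is not given in the sources used here.

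Grb10, an adaptor that dampens insulin and growth factor receptors and is maternally expressed in most tissues, was called lower in 3 clones and higher in 2. Unedited libraries held 76.2 to 116 CPM. Its level was 12.3 CPM in S37Y A5, 31.7 CPM in T41I B9 and 33.3 CPM in S45P G5, with log2 differences of -3.0 (SE 0.24), -1.64 (SE 0.22) and -1.59 (SE 0.26). It was 169 CPM in S45F C1 and 167 CPM in T41S H8, called higher by 0.74 and 0.76 on the log2 scale (SE 0.14 each). The remaining 10 clones held 74.5 to 131 CPM and were not called, and the 15 clones as a group were not called different from unedited cells (log2 -0.12, SE 0.25, edgeR adjusted p = 0.698). With each dose and mutation as its own group, the clones were called lower (log2 -0.38, edgeR adjusted p = 0.00417), and against the untreated libraries the direction turned (log2 0.064, edgeR adjusted p = 0.952).

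**Figure D2:**
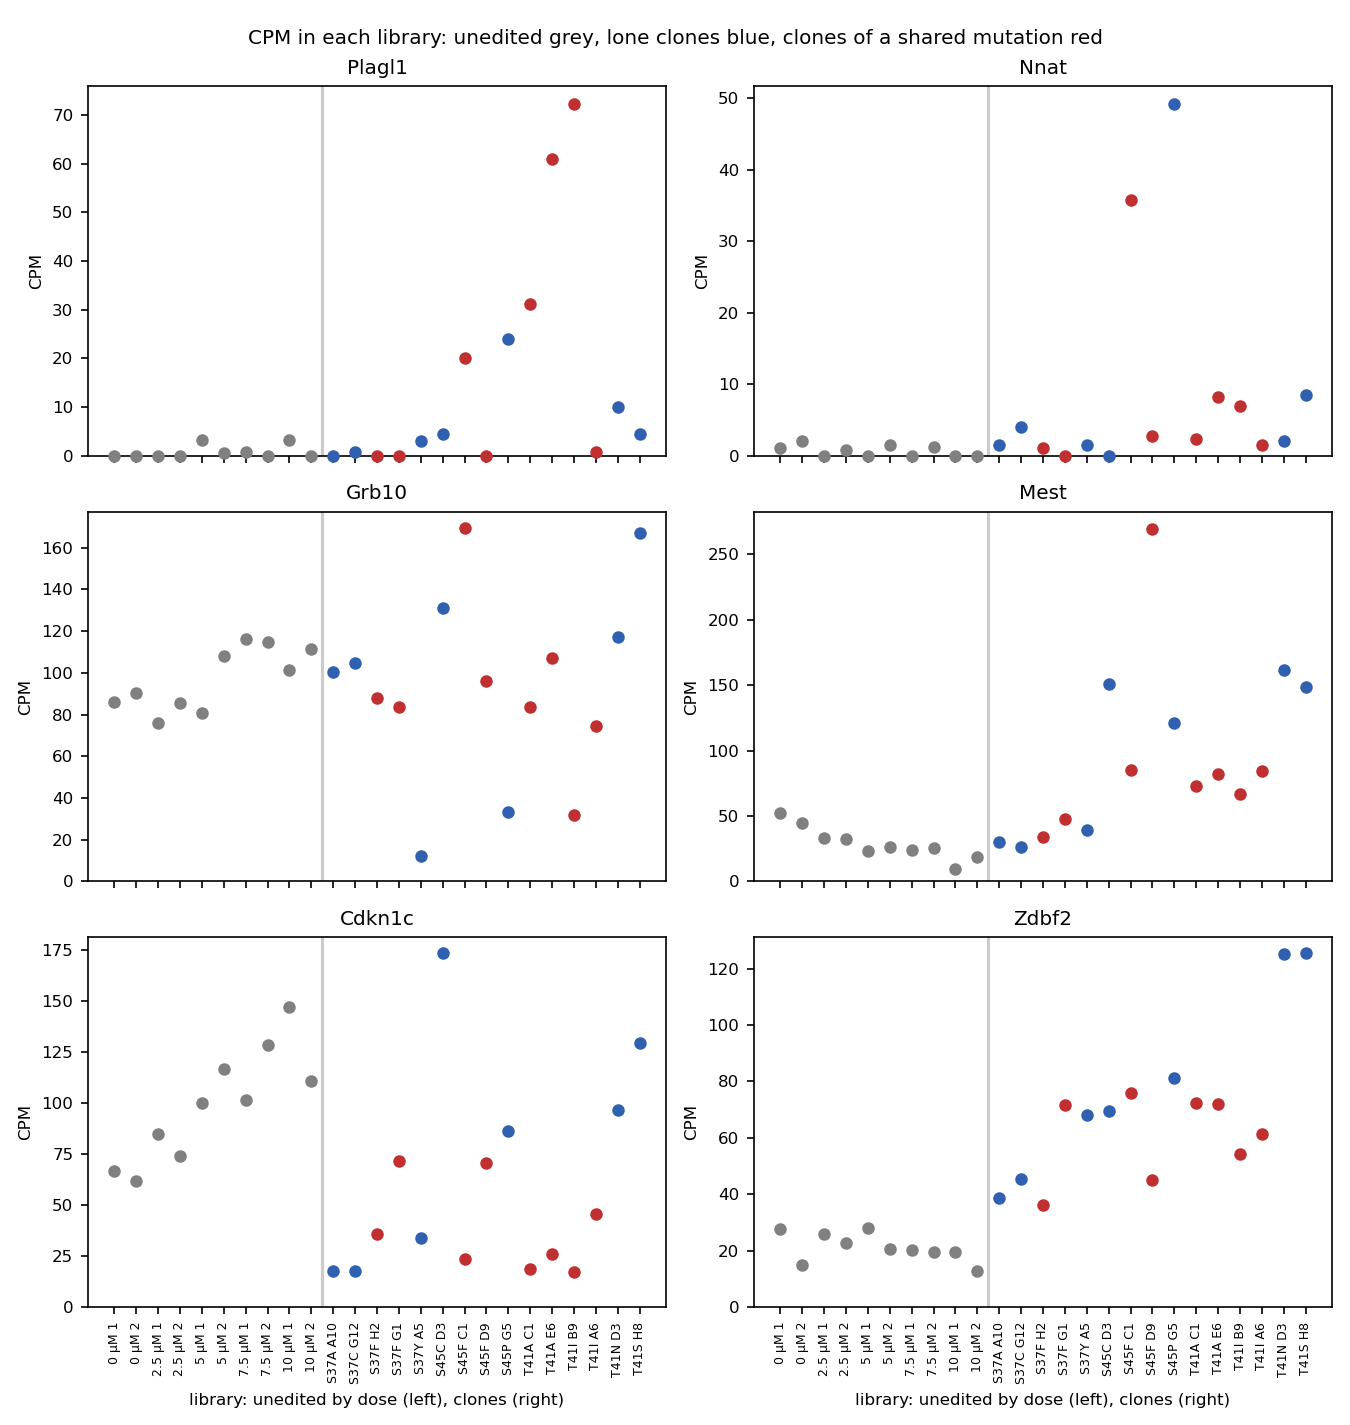
CPM of 6 imprinted genes in each library, with unedited libraries in order of dose (grey), clones that are the only one of their mutation (blue) and clones of a mutation with 2 clones (red). Plagl1 reaches 72.3 CPM in T41I B9 and 0.776 CPM in T41I A6, Grb10 falls to 12.3 CPM in S37Y A5, and every clone is above every unedited library for Zdbf2.

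The Kcnq1ot1 domain on chromosome 7 holds a paternally expressed antisense RNA, Kcnq1ot1, and the genes Cdkn1c, Phlda2, Slc22a18, Ascl2, Tssc4 and Cd81. These genes are listed as maternally expressed and can be silenced by that RNA on the same chromosome copy. Some of them are imprinted only in certain tissues, and whether that RNA silenced any of them in these ES cells was not tested. Kcnq1ot1 was at 25.6 to 45.7 CPM in unedited libraries. It was 97.2 CPM in T41I B9, 90.3 CPM in S37C G12, 84.7 CPM in T41N D3 and 56.6 CPM in S37A A10, all called higher, and 19.2 CPM in T41S H8, called lower. Cdkn1c, an inhibitor of cell cycle kinases, was at 61.7 to 147 CPM in unedited libraries. It was at 17.2 CPM in T41I B9, 17.6 CPM in S37C G12, 17.9 CPM in S37A A10, 18.6 CPM in T41A C1 and 23.9 CPM in S45F C1, with log2 differences between -2.48 and -2.05. In all, 9 clones were called lower for Cdkn1c and 2 higher, S45C D3 at 174 CPM and T41S H8 at 129 CPM. Phlda2 was called lower in 11 clones and higher in none. Of the other genes of the domain, the tetraspanin gene Cd81 was called lower in 10 clones and higher in T41S H8, the splicing-related gene Tssc4 was called only in T41S H8 (higher), the trophoblast transcription factor gene Ascl2 was called only in T41S H8 (lower), and the transporter gene Slc22a18 was called lower in 2 clones.

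On chromosome 6, Peg10, a gene derived from a retrotransposon that is needed for the placenta, ranged from 105 CPM in S37C G12 to 1039 CPM in T41S H8, against 129.9 to 516 CPM in unedited libraries. Lower calls were made in 8 clones of codons 37 and 41 and higher calls in 6 clones, and the log2 difference of the groups was 0.02 (SE 0.34). Peg10 rose with the dose of CHIR99021 in unedited cells, and its untreated libraries averaged 153 CPM against 345 CPM over all 10. Against the untreated libraries alone, 5 of the 8 lower clones turned to a higher level, with log2 differences of 0.398 in S37F G1, 0.112 in T41A C1, 0.46 in T41A E6 (edgeR adjusted p = 0.048), 0.304 in T41I B9 and 0.375 in T41I A6, the other 4 not being called. The 6 were S45C D3 (652 CPM), S45F C1 (443), S45F D9 (449.5), S45P G5 (482), T41N D3 (807) and T41S H8. Mest, further along the chromosome, was highest in S45F D9 (269.7 CPM) and at 161, 151, 149 and 121 CPM in T41N D3, S45C D3, T41S H8 and S45P G5. It was 26.4 to 48.1 CPM in the 5 codon 37 clones, of which S37F G1 was called. Mest fell with dose, and against the untreated libraries (mean 48.7 CPM) the difference in S37F G1 was -0.0300 on the log2 scale (edgeR adjusted p = 0.955). In S45F D9 the median log2 difference over 562 genes of chromosome 6 was 0.37, the highest for any chromosome that holds one of these genes in any clone, while it was 0.04 over the 21 genes within 2 Mb of Mest. Over the 6 genes within 2 Mb of Peg10 it was 0.43 in that clone, close to the 0.45 of Peg10 itself. Across all loci with at least 5 tested neighbours, the median of the genes within 2 Mb lay between -0.70 and 0.62. The counts of Mest and Copg2, a coat protein gene of the opposite strand, are uncertain where the genes overlap.

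Other growth-related genes moved in both directions. Igf2, the paternally expressed fetal growth factor, was at 57.6 to 113.5 CPM in unedited libraries, was called lower in 8 clones, down to 22.4 CPM in S37F H2, and was called higher in T41N D3 (194 CPM) and T41S H8 (242 CPM). Over all clones it was not called (log2 -0.36, SE 0.31, edgeR adjusted p = 0.334), but without T41S H8 it was lower (log2 -0.67, edgeR adjusted p = 0.0203). Against the 2 untreated libraries its direction turned (log2 0.27, edgeR adjusted p = 0.818). Peg3, a paternally expressed zinc finger gene, was called lower in 9 clones, the lowest being S37A A10 at 24.6 CPM, and higher in S45P G5, T41N D3 and T41S H8 (101, 143 and 177 CPM), against 50.3 to 83.4 CPM in unedited libraries. Ndn, a paternally expressed growth suppressor of neurons, reached 38.3 CPM in T41N D3 and 47.5 CPM in T41S H8, both called, and was called lower in T41I A6 (3.88 CPM). T41N D3 was the most shallow clone, with 495616 counts.

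At the Dlk1-Meg3 locus on chromosome 12, the maternally expressed long non-coding RNA Meg3 was at 126 to 494 CPM in clones and 132 to 358 CPM in unedited libraries. It was highest in S45F C1, where Mirg was highest as well (40.2 CPM), while Rian was lowest there (11.9 CPM). Meg3 was called higher in S45F C1 and lower in T41A E6, S37Y A5 and T41S H8, and no clone was without it. Dlk1, the paternally expressed Notch-ligand-like gene of the locus, was called lower in 7 clones, down to 1.80 CPM in T41A C1, against 3.81 to 22.5 CPM in unedited libraries.

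The second question was whether 2 clones that carry the same mutation had the same imprinted gene levels. Within the 4 pairs, 14 of 144 tests of imprinted genes were called (9.72%), compared with 348 of 47828 tests over all genes (0.728%). The 14 include Plagl1 in S45F and T41I and Nnat in S45F, genes that passed the filter only through clones where they were high. S45F and T41I had 6 calls each among 36 genes (backgrounds 0.519% and 1.6%), and S37F and T41A had 1 each (0.627% and 0.167%). The other 45 imprinted genes that were listed for comparison gave 1 call in 96 tests.

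In S45F, clone C1 had less Mest than D9 (85.3 and 269.7 CPM, log2 -1.67, SE 0.20, edgeR adjusted p = 2.91e-07), the gene on the chromosome whose median was raised in D9. C1 had less Phlda2 (47.1 and 131 CPM, log2 -1.49, SE 0.24) and less Cdkn1c (23.9 and 70.6 CPM, log2 -1.57, SE 0.31). It had more Impact (542 and 271 CPM, log2 0.99, SE 0.17). Plagl1 gave 32 counts in C1 and 0 in D9, at least 7.3-fold higher if 3 counts are taken as the floor in D9. Nnat gave 57 and 3 counts, a CPM ratio of 13 (95% exact binomial interval 4.23 to 64.9, counting error only).

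In T41I, clone B9 had more Plagl1 than A6, 105 counts against 1, a CPM ratio of 93.3 (95% exact binomial interval 16.4 to 3718). B9 had less Grb10 (31.7 and 74.5 CPM, log2 -1.25, SE 0.28), less Phlda2 (59.2 and 127 CPM, log2 -1.12, SE 0.23) and less Cdkn1c (17.2 and 45.8 CPM, log2 -1.43, SE 0.35). It had more Kcnq1ot1 (97.2 and 41.9 CPM, log2 1.19, SE 0.27) and more Mcts2 (67.5 and 30.2 CPM, log2 1.13, SE 0.31, edgeR adjusted p = 0.0398). In the remaining pairs, T41A clone C1 had less Igf2 than E6 (28.2 and 95.2 CPM, log2 -1.71, SE 0.27) and S37F clone H2 had less Mcts2 than G1 (25.1 and 69.5 CPM, log2 -1.48, SE 0.31). Each clone here was 1 library, so these differences compare libraries whose spread was taken from unedited pairs.

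The number of calls was 13 to 15 with any unedited library left out, and the call on Mcts2 in T41I was lost without either library at 7.5 µM. DESeq2 called 0 of the 144 (18 at an unadjusted p below 0.05) and 7 genes over all pairs, and edgeR called 0 of 124 on counts thinned to the smallest library (14 at an unadjusted p below 0.05). In simulated counts for the T41I pair with 200 changed genes, edgeR recovered 50% of 2-fold and 96% of 4-fold changes with 5.81% false calls. DESeq2 recovered 16% and 78%. The simulated counts were drawn with edgeR's own spread from this fit, which came from the unedited pairs. They therefore cannot show which tool was right for the clones.

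**Figure D3:**
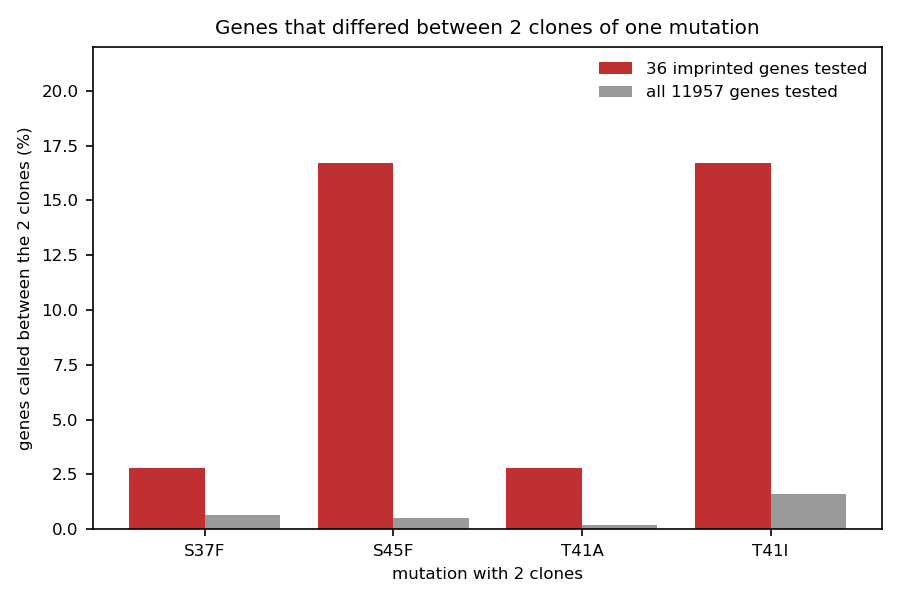
Share of genes called different between the 2 clones of one mutation (edgeR, adjusted p below 0.05), for 36 imprinted genes (red) and all 11957 genes tested (grey). The share of imprinted genes is 16.7% in S45F and T41I and 2.78% in S37F and T41A, and that of all genes is 0.167% to 1.6%.

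The spread of each gene over all 15 clones was described by its biological coefficient of variation (BCV), divided by that of genes of the same abundance. This fit had no term for mutation, so differences among mutations counted as spread. Of 27 imprinted genes with enough counts, 7 had a ratio of at least 2 (25.9%), compared with 2.41% of all 8134 genes. They were Peg10 (2.94), Cdkn1c (2.79), Igf2 (2.78), Mest (2.66), Peg3 (2.62), Grb10 (2.38) and Ndn (2.21). Commd1 (0.62) and Inpp5f (0.69) spread less than the trend, as did Cd81 (0.83) and Snrpn (0.93). Inpp5f is a phosphatase gene listed as paternally expressed, but its counts did not separate imprinted from other transcripts. At a ratio of 1.5, 11 of 27 were counted against 6.49% of all genes. In unedited libraries, with the dose in the model, only Meg3 reached 2 (2.14) of 29 imprinted genes, against 0.608% of all genes, and 4 reached 1.5 against 4.18%. The 7 genes that were widest in clones had ratios there of 1.52 (Peg10), 1.14 (Cdkn1c), 1.46 (Igf2), 0.68 (Mest), 0.91 (Peg3), 0.83 (Grb10) and 1.22 (Ndn). Plagl1 and Nnat were too low in most clones to enter this description.

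**Figure D4:**
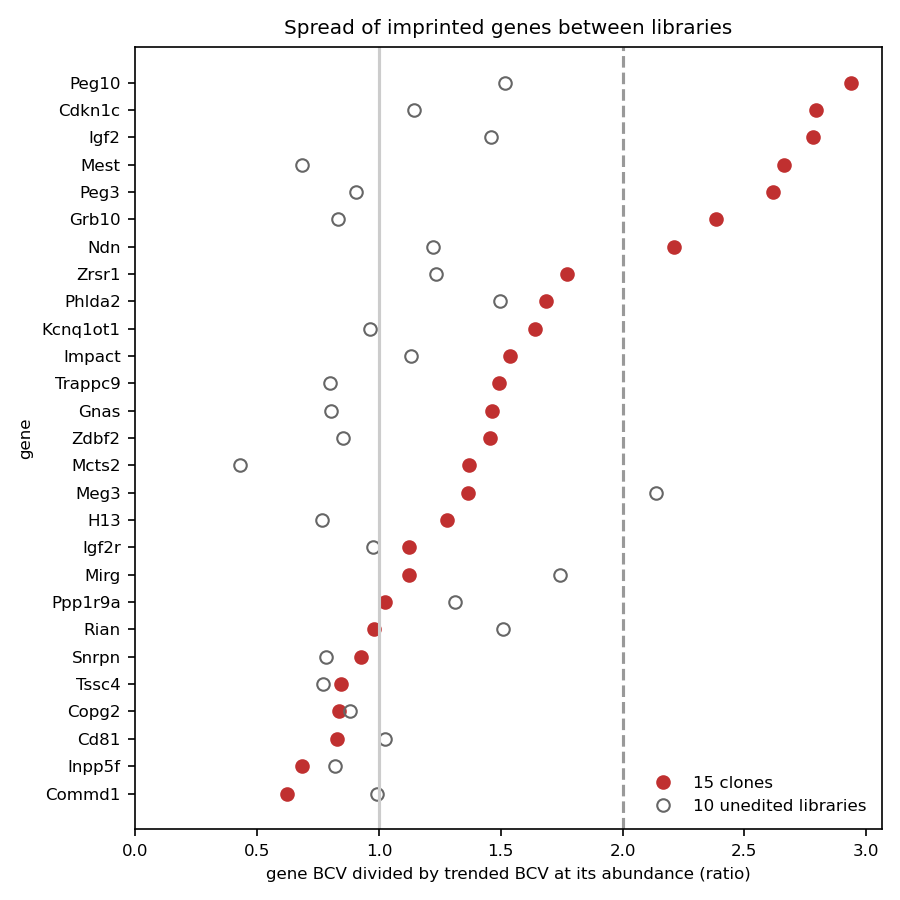
Ratio of each gene's BCV to the trend at its abundance, over 15 clones (filled red) and 10 unedited libraries (open grey), for 27 imprinted genes, with a dashed line at 2. The 7 widest genes lie at 2.21 to 2.94 in clones and at 0.68 to 1.52 in unedited libraries. The clone fit has no term for mutation, while the unedited fit has one for dose, so the 2 ratios are not alike.

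The standard deviation of log2 levels between clones of one mutation was set beside that between unedited cultures at one dose. It was 0.82 against 0.19 for Cdkn1c, 0.66 against 0.10 for Phlda2, 0.78 against 0.14 for Igf2, 0.53 against 0.15 for Grb10 and 0.74 against 0.23 for Mcts2. For Mest it was 0.62 against 0.29, for Peg3 0.51 against 0.23 and for Ndn 0.64 against 0.33. Peg10, the widest gene over all clones (1.07), had only 0.28 between clones of one mutation, against 0.21 at one dose. By contrast it was 0.10 against 0.14 for Snrpn, 0.16 against 0.18 for Igf2r, 0.16 against 0.20 for Commd1, and 0.18 against 0.18 for Trappc9. Meg3 and Rian also spread less between clones of one mutation (0.45 and 0.35) than between unedited cultures at one dose (0.64 and 0.56).

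Whether genes of one locus moved together was examined over the 15 clones, for 28 pairs of genes of a shared locus, a question taken up after their values had been seen. Cdkn1c and Phlda2, both maternally expressed, were correlated (Pearson r = 0.75, permutation p = 0.00156, adjusted over 28 relations 0.0256; Spearman rho = 0.786, permutation p = 0.00084, adjusted 0.0155). Without the 2 clones farthest from the median of Cdkn1c, S45C D3 and T41S H8, r was 0.681. Peg10 and Sgce, paternally expressed genes that start next to each other, were correlated too (r = 0.733, permutation p = 0.00183, adjusted 0.0256; rho = 0.775, permutation p = 0.00111, adjusted 0.0155), with r = 0.758 without T41S H8 and T41N D3. Over the 10 unedited libraries r was -0.436 for the first pair and 0.0988 for the second. Neither gene pair was tested within the mutations, which hold at most 2 clones.

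Mcts2 lies within an intron of H13, the gene of a signal peptide peptidase, on the same strand, and H13 transcripts are known to end before or after Mcts2 depending on the allele. Over the clones the levels of Mcts2 and H13 were inversely related (r = -0.647, permutation p = 0.00901, adjusted 0.0631; rho = -0.711, permutation p = 0.0039, adjusted 0.0364), with r = -0.666 without S37A A10 and S45C D3. The clones with the most Mcts2, S37F G1 and T41I B9 (69.5 and 67.5 CPM), held 24.6 and 31.0 CPM of H13, while unedited libraries held 39.3 to 78.4 CPM. Kcnq1ot1 and Cdkn1c had r = -0.365 (permutation p = 0.181, adjusted 0.421; rho = -0.457, permutation p = 0.0898, adjusted 0.427) and passed no threshold. Meg3 and Mirg had r = 0.703 (permutation p = 0.0049, adjusted 0.0457; rho = 0.411, permutation p = 0.13, adjusted 0.427), which rested on S45F C1 and T41A E6, since r was 0.168 without them.

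**Figure D5:**
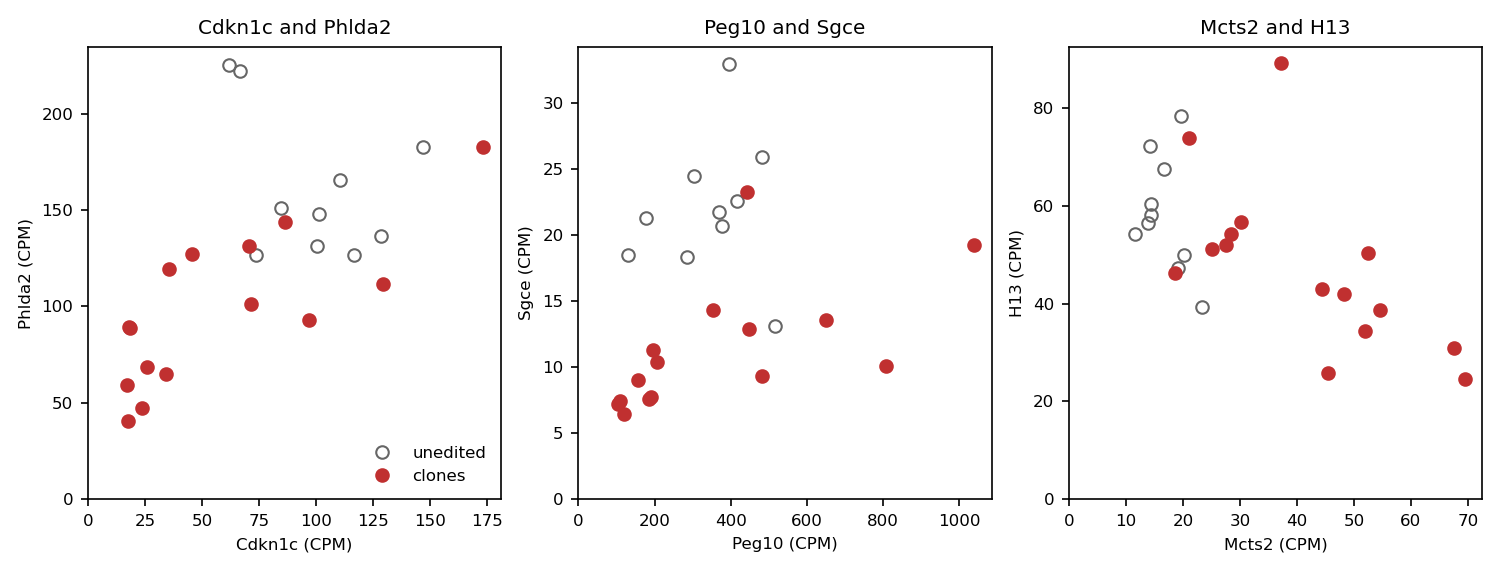
CPM of pairs of genes of one locus in 15 clones (filled red) and 10 unedited libraries (open grey). Phlda2 is high where Cdkn1c is high and Sgce where Peg10 is high (r of 0.75 and 0.733 over clones), and H13 is low where Mcts2 is high (r = -0.647).

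The dose of CHIR99021 showed what kinase inhibition did to the genes in cells that had not been cloned. Of 29 imprinted genes tested, 6 rose and 3 fell with dose (31.0%), compared with 12.5% of all 10033 genes (5.89% rising and 6.65% falling). Peg10 had the smallest p and rose from 129.9 and 176 CPM at 0 µM to 516 and 416 CPM at 10 µM (log2 slope 0.15 per µM, SE 0.02, edgeR adjusted p = 5.05e-06). Cdkn1c rose from 66.9 and 61.7 to 147 and 111 CPM (slope 0.10, SE 0.02, adjusted p = 0.000271). Mest fell from 52.7 and 44.7 to 9.80 and 18.8 CPM (slope -0.14, SE 0.02, adjusted p = 6.87e-05). At 0 µM and 10 µM the libraries of these 3 genes did not overlap. The genes were picked by their slopes, and the share of all genes without such overlap was not counted. Igf2r (slope 0.06), Dlk1 (0.17), H13 (0.06) and Grb10 (0.05) also rose, and Snrpn (-0.06) and Impact (-0.05) also fell. Of the fits that each left out 1 of the 10 libraries, the call was lost in 2 for H13, 4 for Snrpn, 7 for Impact and 8 for Grb10, either untreated library among them for Snrpn, Impact and Grb10.

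Levels also differed among mutations, for 18 of 35 imprinted genes (51.4%) compared with 16.7% of all 11450 genes, with the spread taken from the 4 clone pairs. The strongest were Peg10 (edgeR adjusted p = 2.41e-07), Peg3 (7.94e-05) and Gnas (0.000415). Without T41S H8, 10 of 34 genes were called, and DESeq2 called 7. This test had 17.6% false calls in simulated counts and called 14 genes in simulated counts without any changed gene, and 7 mutations had 1 clone each. Among codons 37, 41 and 45, the gene Mest alone was called of 32 tested (edgeR adjusted p = 0.00846), while 1.15% of all genes were. All 5 codon 37 clones were below all 10 others for Mest, which was picked by this test. The share of all genes with such a split was not counted.

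The 10 imprinted genes at low levels each had at most 152 counts in all 25 libraries. Peg13 had no count, Nap1l5 had 4, Rtl1 12, Magel2 15 and Zim1 21. The maternally expressed growth-restraining RNA H19 had 52 counts and reached 7.53 CPM in S45F C1 against at most 3.27 CPM in unedited libraries, but was too low to be tested against them. Among mutations it was tested and not called (edgeR adjusted p = 0.535). Airn, the antisense RNA that silences Igf2r, had 49 counts and overlaps that gene. Usp29, Peg12 and Slc22a18 had 63, 110 and 152 counts, and Peg12 and Slc22a18 were each called lower in 2 clones.

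The last 3 genes were called in few or no clones. Commd1, which hosts Zrsr1 on the opposite strand, was at 90.8 to 132 CPM in clones and 99.8 to 139.8 CPM in unedited libraries and was called in no clone. Inpp5f, at 6.42 to 18.2 CPM, was likewise called in no clone. Trappc9, a vesicle trafficking gene that hosts Peg13, was called lower in S45C D3 (24.1 CPM), T41S H8 (24.9 CPM), T41N D3 (32.3 CPM) and S45P G5 (33.3 CPM) and higher in S37C G12 (93.5 CPM), against 49.4 to 74.0 CPM in unedited libraries.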

How the data were processed

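The deposited table held raw counts per gene, which the authors made from 3′ reads (mcSCRB-seq) by removing ribosomal reads, aligning to mm10 with STAR, removing duplicate molecules by their identifier (UMI-tools) and counting with featureCounts 2.0.1, as the submitters' processing notes and the study's methods give it. The annotation release and strand setting of the counting are not given in the sources used here. Symbols and positions came from GENCODE M21 (48058 of 48440 identifiers matched) and upstream sequences from RefSeq (GRCm38.p6). No column of the table was left without a sample.

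Counts were tested with edgeR 4.0.16 (quasi-likelihood F-test, TMM normalization, filterByExpr with a minimum count of 10, false discovery rate 0.05 over all genes tested), and DESeq2 1.42.0 was an alternative. CPM were counts scaled to a library total of 1000000. SEs were computed from the F statistic. Fits were: 15 clones against 10 unedited libraries; each clone, or the difference of 2 clones, with the spread of the 5 dose pairs; the slope on dose; and mutation or codon among clones. Correlations used CPM on a log2 scale and 100000 permutations, two-sided. Simulated data were used for the fits of clones against unedited libraries, dose, mutation and codon, and for the T41I pair. Single clones against unedited libraries, and the fit with each dose and mutation as its own group, were not simulated. The sources do not say whether replicate cultures were grown apart, so p-values measure the spread between these samples. No 2 libraries of a group agreed within sampling noise (chi-square per degree of freedom 1.33 to 3.66).

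The imprinted genes and the lists were chosen with earlier results of these data known. Levels are described for the 32 genes whose 25 libraries averaged 5 CPM or more, or with 20 CPM or more in any clone, and the other 10 by ranges and counts. Alternatives were the normalization, the filter, the tool, the control libraries, each dose and mutation as its own group, thinned counts, a replicate block and leaving out each library. The grouping of mutations by effect score used by the study is not in the sample labels and was not used here.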

Additional observations from a re-analysis of the deposited data

Results flagged for a closer look

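Groups of 4 to 10 samples (the clones of one codon, and the 10 unedited libraries) were searched for a highest or lowest library far from its nearest neighbour relative to the range of the group. Of 128 such groups, 11 held one, and chance gives about 1 in 20. T41S H8 was the clone with the lowest ES-marker sum and the highest neural and fibroblast-marker sums, to which Nes and Col1a1 gave the most. T41S H8 stood apart from the other codon 41 clones for Gnas (985 CPM, next 476 CPM), Cd81 (680 CPM, next 476 CPM) and Sgce (19.2 CPM, next 10.4 CPM). In the same codon group T41N D3 was low for Igf2r (107 CPM, next 130 CPM). Among codon 37 clones, S37Y A5 was low for Grb10 (12.3 CPM, next 83.9 CPM) and high for Plagl1 (2.96 CPM, next 0.799 CPM), S37F G1 was low for Gnas (307 CPM, next 392 CPM) and S37A A10 was high for Inpp5f (15.6 CPM, next 12.3 CPM). Among codon 45 clones, S45F C1 was high for Meg3 (494 CPM, next 239 CPM) and S45F D9 for Ascl2 (9.17 CPM, next 4.53 CPM). One unedited library, at 7.5 µM, was high for Rian (24.2 CPM, next 14.5 CPM).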

How the results depend on the processing

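The count of imprinted genes called between clones and unedited cells (17) was 15 to 20 with any library left out, 3 against the 2 untreated libraries alone (2168 genes of all called, in place of 5482) and 7 on counts thinned to the smallest library (1262 genes). Calls of single clones (239) were 232 to 248 with any unedited library left out, 130 by DESeq2 (14550 calls over all genes in place of 55875) and 28 on thinned counts (1905). Calls between 2 clones of one mutation (14) were 13 to 15 with any unedited library left out, 0 by DESeq2 and 0 on thinned counts (7 and 1 calls over all genes, in place of 348). This fit had 20 coefficients for 25 libraries, and why the 2 tools differed was not tested. Dose calls (9) were 5 to 9 with a library left out, fewest without the second untreated library. Calls among mutations (18) were 10 to 22, fewest without T41S H8 (834 genes in place of 1917), and 7 by DESeq2 (654 genes). Calls among codons (1) were 1 to 4, most without T41S H8 (285 genes in place of 117), 5 with no filter on low counts (329) and 5 by DESeq2 (374). Genes spread at least 2 times the trend (7) were 5 to 7 with a clone left out and 11 at a ratio of 1.5. All other settings kept each count within 1.5 times.

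With the replicate number as a block, 7 of 31 imprinted genes and 1140 genes of all (in place of 1258) were called for dose and 18 for mutations (1803 genes in place of 1917). Equal numbers share no stated source, and deviations of same-numbered libraries correlated at -0.128 to 0.119 over doses and -0.161 to 0.123 over clones, so the numbers were not read as pairs.

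Of the single genes followed, these changed sign. Against the untreated libraries, log2 differences were 0.00199 for Cd81, 0.064 for Grb10 and 0.27 for Igf2 over all clones, 0.025 and 0.016 for Cd81 in S37A A10 and S37F H2, -0.0300 for Mest in S37F G1, 0.088 for Igf2 in T41I B9, and for Peg10 0.398 in S37F G1, 0.112 and 0.46 in T41A C1 and E6, and 0.304 and 0.375 in T41I B9 and A6. The Peg10 value of T41A E6 was then called (edgeR adjusted p = 0.048). On thinned counts they were -5.45 for Rian in S37A A10, -0.23 for Trappc9 in S37C G12, -0.13 for Mcts2 in S37Y A5, -2.04 for Mirg in S45F C1, -0.00034 for Snrpn in T41A E6, 0.23 for Igf2 in T41I B9, and -0.84 for H13, -0.093 for Gnas and -1.11 for Nnat in T41S H8, none of which was called. The cause was not tested. Depth limits the low genes: at 495616 counts, 1 count is worth 2.02 CPM, above the mean unedited level of Plagl1 (0.776 CPM) or Nnat (0.657 CPM).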

Other observations

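Of 18 listed genes that write, protect, read or remove DNA methylation marks, 16 were tested and 9 were higher and none lower in clones (edgeR, adjusted p below 0.05), with a median log2 difference of 0.50 against 0.02 over all genes and a background of 28.8% higher. The largest differences were in Dnmt3l, a cofactor of the methyltransferases of the germ line (289 ± 89.1 CPM in clones and 61.6 ± 27.5 CPM in unedited libraries, SD, n = 15 and 10), and in Zfp57, which protects imprints (182.5 ± 81.1 and 54.1 ± 20.9 CPM). Trim28, the corepressor that Zfp57 recruits, was at 1742 ± 239 and 881 ± 135 CPM (log2 0.92). The maintenance methyltransferase Dnmt1 was at 175 ± 26.9 and 162 ± 23.9 CPM (log2 0.05), and its partner Uhrf1 at 230.3 ± 56.3 and 227 ± 36.6 CPM (log2 -0.04). The mitochondrial share separated the same groups, and its part was not tested. Of the 9 higher genes, Tet2 (log2 1.05) and Tet1 (log2 0.61) encode enzymes that remove methylation, and Tet3 was not called (log2 -0.46). The dose of CHIR99021 changed 11 of the 16 genes in unedited cells, against 12.5% of all genes, and 8 of the 10 unedited libraries were dosed while the clones were not. These genes were not set against the untreated libraries alone.

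Of 45 further genes listed as imprinted, 18 were tested, of which 9 were higher and 3 lower, beside 28.8% higher and 26.8% lower over all genes. The amino acid transporter gene Slc38a4 was lower (110.2 ± 37.0 and 209 ± 85.3 CPM, log2 -0.97), and Cobl, next to Grb10 on chromosome 11, was higher (118 ± 50.6 and 52.5 ± 13.4 CPM, log2 1.11). These genes are named after their values were seen.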
